A study of Mus musculus with 12 samples.

Results

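Translation initiation factor genes were read in ribosome profiling and RNA-seq libraries of embryonic mouse hearts with and without the RNA helicase gene Ddx3x in cardiomyocytes. The group was taken by name from the deposited gene table: symbols that begin with Eif and a number from 1 to 6, with values in all 6 pools, leaving out the eIF2α kinase genes (Eif2ak1 to Eif2ak4) and the Y-linked Eif2s3y. Of the 21783 genes in the table, 17165 had values in all 6 pools and 48 of them were members. They fell into eIF2 (3 genes), eIF2B (5), eIF3 (14), eIF4 (14) and the remaining factors (12). Another match, Eif2c5, had blanks in some pools and was left out. Eif4e3 and Eif4ebp3 were not analysed here. The difference between genotypes was not used in this rule, and all 48 passed the filter on low counts in every comparison.

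All hearts came from embryos labelled female at embryonic day 10.5. WT hearts were Ddx3x fl/fl, so their floxed Ddx3x was intact. In the second genotype, Ddx3x CM-KO, Ddx3x was deleted in cardiomyocytes, and the carcasses were genotyped for Tnnt2-Cre, a recombinase under a cardiomyocyte troponin promoter. There were 3 pools of 20 hearts per genotype. From every pool an RNA library and a library of ribosome-protected footprints were made, 12 libraries in all. Whole hearts also hold endothelial, epicardial and blood cells, in which the Tnnt2 promoter is not active.

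Eukaryotic initiation begins when eIF2, loaded with GTP, carries the initiator methionyl-tRNA to the small ribosomal subunit together with eIF1, eIF1A, eIF3 and eIF5. The eIF4F complex, made of the cap-binding protein eIF4E, the scaffold eIF4G and the helicase eIF4A, brings this subunit to the capped end of an mRNA, after which the leader is scanned for a start codon. eIF5 makes eIF2 hydrolyse its GTP, eIF5B joins the large subunit, and eIF2B reloads eIF2 with GTP. DDX3X, a DEAD-box helicase like eIF4A, binds initiation factors and helps with structured leaders. In heart, as elsewhere, growth signals act on initiation through the 4E-binding proteins and stress signals through eIF2.

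Library totals were 14664486 to 19894094 counts for RNA and 7314972 to 14343747 counts for footprints. The pools were labelled female, yet the Y-linked Eif2s3y was listed in CM-KO pools 1 and 2, with 86 and 53 RNA counts and 70 and 63 footprint counts. It was blank in CM-KO pool 3 and in all WT pools. A blank stands for 10 counts or fewer. Because of these Y-linked reads, the medians over the members and the changes with the lowest p are also given with CM-KO pool 3 as the single CM-KO pool. The 8 cardiomyocyte markers summed to 16318 to 18276 CPM in WT RNA and to 18853 to 20129 in CM-KO, without overlap. CPM are counts relative to the TMM-scaled library size. In footprints the same markers summed to 34740.4 to 36425 CPM in WT and 32229 to 39629 in CM-KO, with overlap. Sums of 6 endothelial and endocardial markers and of 4 epicardial markers overlapped between the genotypes in both assays. The sum of 8 erythroid markers was 42755 to 56925 CPM in WT footprints and 69089 to 88491 in CM-KO, without overlap, and 8646 to 13874 against 12548 to 15757 in RNA. RNA of 8 liver and yolk sac markers was 99.6 to 449.6 CPM in WT, and 52.6 to 337 in CM-KO pools. By gene, all 8 erythroid markers had an RNA log2 fold change above 0 (CM-KO over WT), with a median of 0.38. Of these, 3 rose at the adjusted p threshold given below, against 4.37% of all genes called. Of the 8 cardiomyocyte markers, 5 were above 0 in RNA, with a median of 0.1, and 2 rose at that threshold. Of the 8 liver and yolk sac markers 0 were above 0 in RNA, with a median of -0.76, and 0 passed.

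Of the 48 initiation factor genes, 25 had a log2 fold change above 0 in RNA and 43 in footprints, and the 1 call among them was in RNA. In RNA, 1 of 48 members passed the threshold of an adjusted p under 0.05 (edgeR quasi-likelihood test, Benjamini-Hochberg adjustment over all genes), against 4.37% of 17147 genes. That gene was Eif5, which rose. DESeq2 called 2 members, Eif5 and Eif3f, against 5.6% of all genes, and at an unadjusted p under 0.05 there were 6 members, 12.5% of them against 16.1% of all genes. The median log2 fold change of the members (CM-KO over WT) was 0.00, with 25 above 0, and the median of all genes was 0.01. With CM-KO pool 3 as the single CM-KO pool it was -0.02. The CM-KO pools lay all above the WT pools for 9 members (13.3% of all genes) and all below for 7 (8.42%). In bulk hearts, a change in the number of cells of a type and a change in RNA per cell cannot be told apart.

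In the footprint libraries 0 of 48 members passed, against 0.23% of 15249 genes. At an unadjusted p under 0.05 there were 11 members, 22.9% of them against 8.86% of all genes. DESeq2 called 3 members, Eif4a1, Eif4g2 and Eif5, all higher in CM-KO, against 1.21% of all genes. The median log2 fold change was 0.12 and 43 of 48 members were above 0, while the median of all genes was -0.01 and 47.1% of them were above 0. The CM-KO pools lay all above the WT pools for 13 members, 27.1% of them against 7.74% of all genes, and all below for 1 (7.05%). The 13 were Eif1, Eif1b, Eif2b3, Eif2s1, Eif3a, Eif3c, Eif3h, Eif4a1, Eif4a2, Eif4g2, Eif5, Eif5a and Eif5b, and the 1 was Eif4ebp2. With CM-KO pool 3 as the single CM-KO pool the median was 0.17 and 43 members were above 0. Erythroid marker footprints also stood higher in every CM-KO pool, as given above, and their part in the members' footprints was not tested.

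For the footprint-to-RNA ratio, tested through a genotype-by-assay interaction, 0 of 48 members passed, against 0.84% of 15231 genes. At an unadjusted p under 0.05 there were 4 members, 8.33% of them against 6.21% of all genes, and DESeq2's interaction test called 0, against 0.657% of all genes. The median change was 0.13 on the log2 scale with 38 of 48 above 0, and the median of all genes was -0.01 with 47.6% above 0. CM-KO pools were all above WT for 5 members (3.83% of all genes) and all below for 2 (8.25%). The former were Eif3f, Eif3j1, Eif4a1, Eif4b and Eif4g2, and the latter the 4E-binding protein genes Eif4ebp1 and Eif4ebp2. Eif3j1 had only 11 to 29 footprint counts per library, and its ratio change was 0.34 (SE 0.26, 95% confidence interval -0.20 to 0.88). Without CM-KO pool 1 the median of the members was 0.29 and that of all genes 0.06, and with CM-KO pool 3 as the single CM-KO pool the members' median was 0.22. With the pool as a block, which ties the 2 libraries of the same hearts, 226 genes in place of 128 passed, and 1 of them was a member, Eif4g2.

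**Figure D1:**
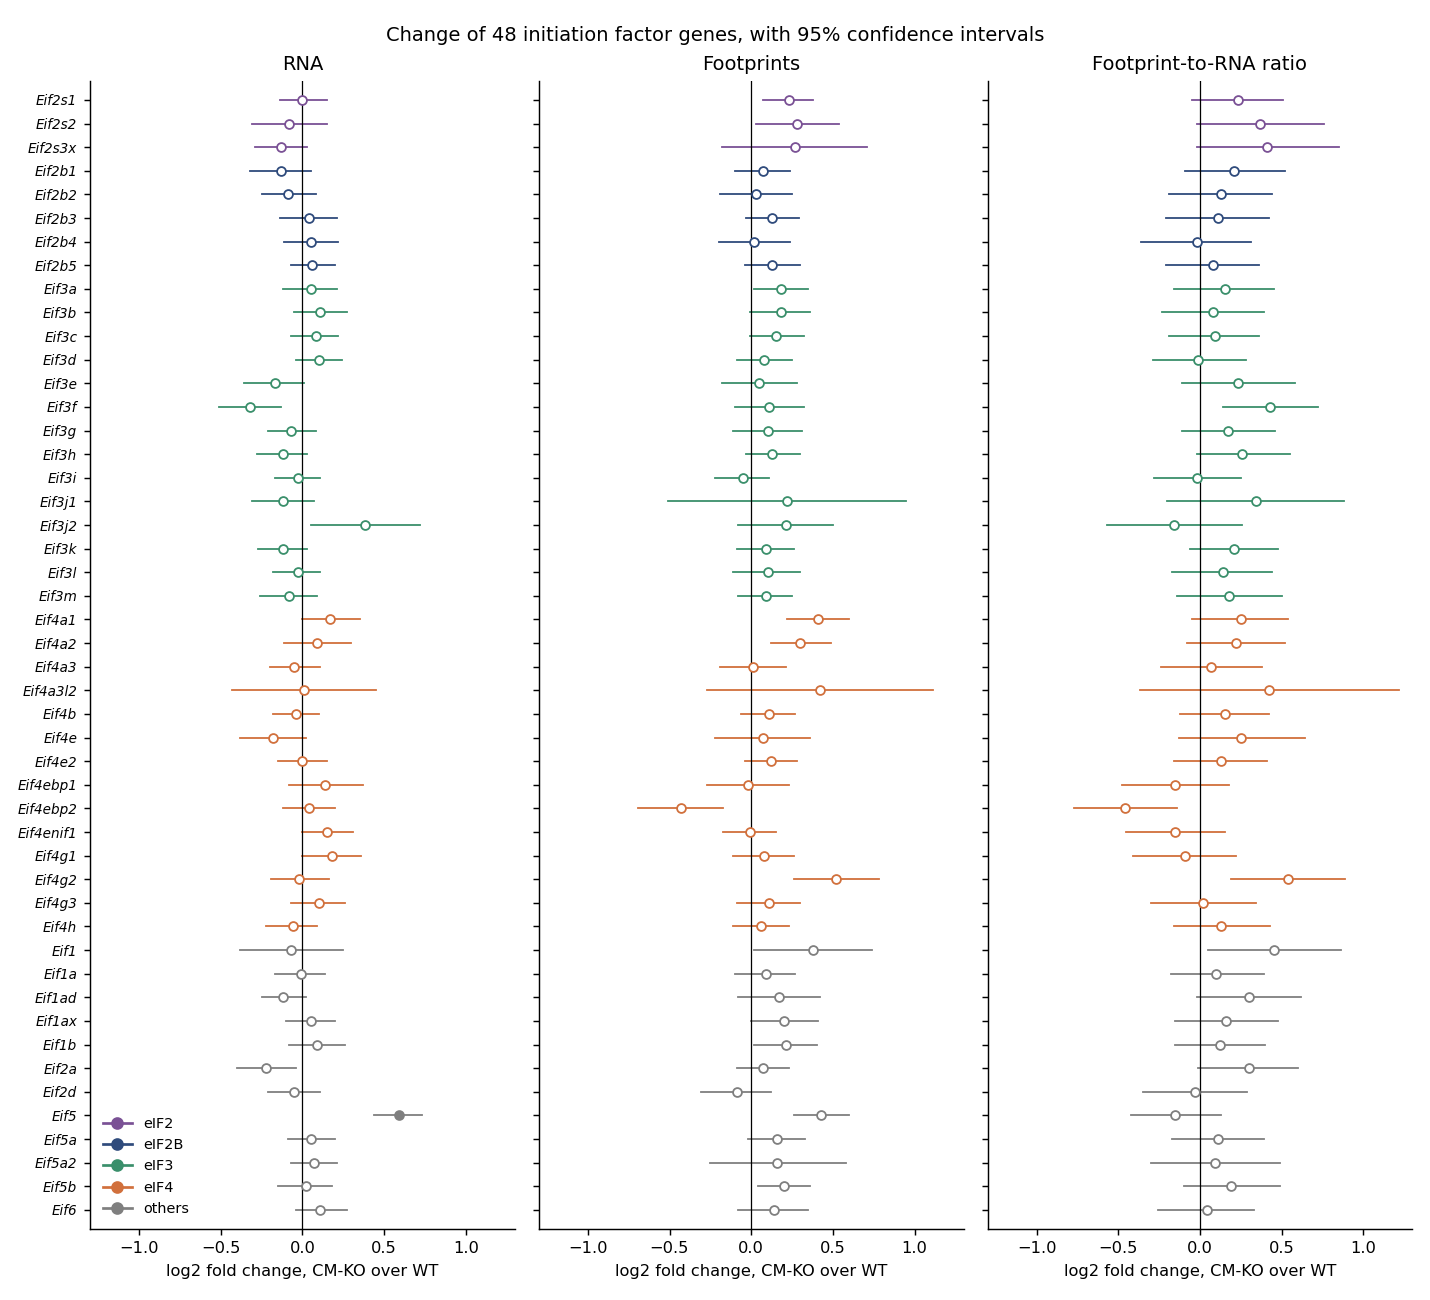
Log2 fold change (CM-KO over WT) of each of the 48 genes in RNA, footprints and their ratio, with 95% confidence intervals from edgeR (3 pools per genotype). A filled point marks an adjusted p under 0.05, which is Eif5 in RNA alone. In footprints 43 points lie to the right of 0, against 25 in RNA.

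Summed over all members, the counts showed the same by pool. Members took 0.754 to 0.767% of the WT RNA libraries and 0.730 to 0.769% of the CM-KO ones, so the genotypes overlapped. In footprints they took 0.770 to 0.802% in WT and 0.843 to 0.867% in CM-KO, without overlap. Such a sum is weighted to members with many counts, such as Eif3a, Eif4g1, Eif3c, Eif4g2 and Eif4a1. In that order they had 6444, 5425, 5224, 4715 and 4499 of 75077 member footprint counts in WT pool 1. In CM-KO pool 1 they had 5875, 4521, 4511, 6119 and 4250 of 65272. Their part in the gap was not tested. The pools of 1 genotype differed among themselves as well. The median deviation of the members' footprints from the mean of the 6 pools was -0.10, -0.03 and -0.06 log2 units in WT pools 1, 2 and 3 and -0.02, 0.09 and 0.11 in CM-KO. CM-KO pools 2 and 3 stood apart from all WT pools there, and CM-KO pool 1 was next to the highest WT pool. For the ratio, CM-KO pool 1 was at -0.12, between WT pool 3 at -0.17 and WT pool 1 at -0.03, while CM-KO pools 2 and 3 were at 0.12 and 0.18.

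**Figure D2:**
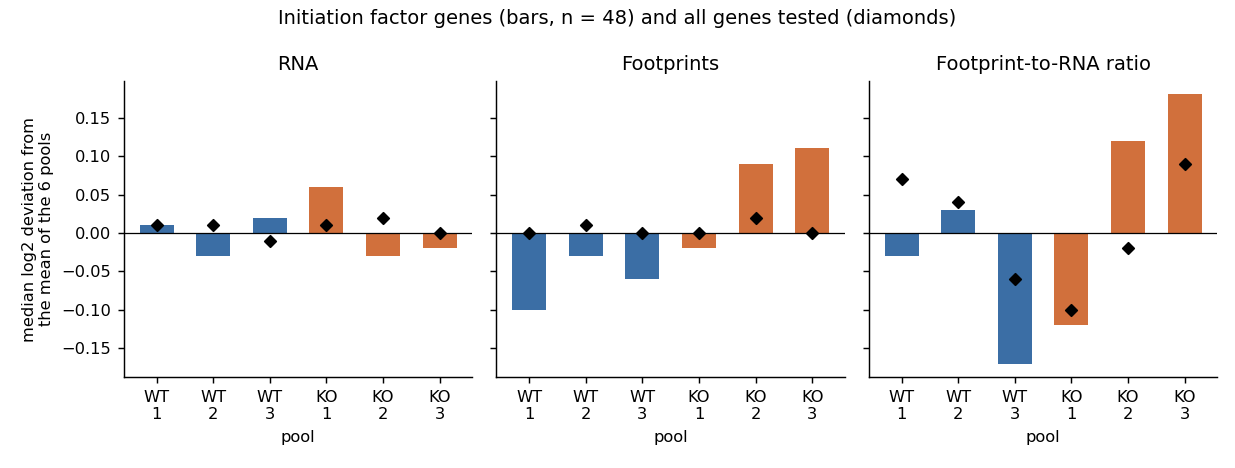
Median log2 deviation of the 48 initiation factor genes from the mean of the 6 pools (bars) and of all genes tested (diamonds), for RNA, footprints and their ratio, by pool (KO is CM-KO). In footprints the bars of CM-KO pools 2 and 3 reach 0.09 and 0.11 and those of the WT pools lie between -0.10 and -0.03. In the ratio the diamonds move too, from -0.10 in CM-KO pool 1 to 0.09 in CM-KO pool 3.

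The factors that judge the start codon held the one member that passed. Eif5 (chromosome 12, 111502067 to 111514340, plus strand, GRCm39) encodes eIF5, the GTPase-activating protein of eIF2. Its RNA was at 201, 200.4 and 206 CPM in WT pools 1, 2 and 3 and at 308, 288 and 315 in CM-KO. All CM-KO pools lay far above all WT pools, and the spread within a genotype was small. Means were 202 ± 2.84 and 304 ± 13.9 CPM (SD, n = 3), a log2 change of 0.59 (SE 0.07, adjusted p = 0.00104). With CM-KO pool 3 as the single CM-KO pool it was 0.64 (adjusted p = 0.0307). Over 15 alternatives it ran from 0.54 to 0.64 and passed in each, with adjusted p from 6.31e-15 to 0.0307.

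Eif5 footprints stood at 75.8, 84.7 and 73.5 CPM in WT and at 103, 107 and 104 in CM-KO. The genotypes did not overlap here either. The log2 fold change was 0.43 (SE 0.08), the lowest p of the members, but the adjusted p of 0.0732 missed the threshold. It passed in 5 of 15 alternatives, DESeq2 among them (0.43, adjusted p = 0.0018), and adjusted p ran from 0.0018 to 0.283. CM-KO pool 3 as the single CM-KO pool gave 0.42 (adjusted p = 0.225) for Eif5 footprints. The authors' deposited table lists a footprint log2 fold change of 0.43 and an adjusted p of 0.00522. The ratio of Eif5 was -0.96, -0.81 and -1.18 in WT against -1.23, -1.04 and -1.12 in CM-KO on the log2 scale, so the genotypes overlapped. Its change was -0.15 (SE 0.13, 95% confidence interval -0.42 to 0.13, adjusted p = 0.999). It was -0.05 without WT pool 2 or without CM-KO pool 1, -0.06 without CM-KO pool 3 and -0.25 without WT pool 3.

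eIF1 opposes eIF5 at the start codon in mammalian cells by holding the scanning subunit open, and its own mRNA carries a weak start context in vertebrates. The annotated contexts of Eif5, Eif1 and Eif1b are shown because eIF1 and eIF5 are the factors that read such contexts. Each line gives 15 bases before the start codon, the start codon in capitals and the first bases of the coding sequence, from GENCODE transcripts on GRCm39, 5′ to 3′.
Eif5: cactaataagccaaaATGtctgtcaacgtc
Eif1: aaggaatcgtatcgtATGtccgctatccag
Eif1b: tcacactagtgtcgcATGtccactatccag
The start codons begin at position 111506050 of chromosome 12, 100210956 of chromosome 11 and 120321877 of chromosome 9, all on the plus strand. Eif5 had A at position -3 and both Eif1 genes had C there, a base found at that position in 5 of 48 members (10.4%) and 8.01% of 14633 genes with a coding main transcript. The other 3 were Eif3b, Eif4h and Eif6. The leader of Eif5 was 637 bases long and held 5 ATG triplets.

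Eif1 RNA was 64.5, 55.5 and 45.5 CPM in WT and 43.6, 55.9 and 57.9 in CM-KO, with overlap. Its footprints did not overlap, at 7.89, 10.7 and 10.6 CPM in WT against 13.8, 12.5 and 11.7 in CM-KO. The footprint log2 fold change was 0.38 (SE 0.16, adjusted p = 0.526) and that of the ratio 0.45 (SE 0.19, adjusted p = 0.648). Without WT pool 1 both were 0.24, and with CM-KO pool 3 as the single CM-KO pool the ratio change was 0.25. Every 30-base window of the Eif1 coding sequence (100%) was found elsewhere in the genome, so the authors' counting could have moved its reads to copies. Its paralog Eif1b had 0.968% such windows and was at 39.4, 42.3 and 37.1 CPM in WT footprints and 42.7, 46.3 and 47.7 in CM-KO. That is a log2 change of 0.21 (SE 0.08, adjusted p = 0.497), and the RNA of Eif1b overlapped between genotypes.

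Eif1a and the X-linked Eif1ax encode eIF1A, the second small factor at the decoding site. Eif1ax RNA was 103, 100.5 and 111 CPM in WT and 114, 107 and 106 in CM-KO. Its footprints were 132, 137 and 127 CPM in WT and 155, 169 and 133 in CM-KO, a log2 change of 0.20 (SE 0.09, adjusted p = 0.57). Both measures overlapped between the genotypes. For Eif1a the footprints were 37.3, 35.5 and 33.1 CPM in WT and 37.1, 37.3 and 37.9 in CM-KO, and its RNA change was -0.01 (SE 0.07, adjusted p = 0.976).

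Among the genes with eIF4 names, which include the cap-binding eIF4F complex and its partners, 0 of 14 passed in any comparison. In footprints 11 of 14 were above 0, in RNA 9 and in the ratio 10. Eif4g2 (chromosome 7, 110666957 to 110682244, minus strand) encodes eIF4G2, also called DAP5, a scaffold that lacks the binding site for eIF4E. Its RNA was at 1383, 1464 and 1496 CPM in WT and 1543, 1365 and 1388 in CM-KO, and the genotypes overlapped. Footprints of Eif4g2 were at 471, 512 and 634 CPM in WT and at 777, 825 and 714 in CM-KO. The lowest CM-KO pool was above the highest WT pool, and WT pool 3 stood apart from the other WT pools. The log2 fold change of the footprints was 0.52 (SE 0.12, adjusted p = 0.152), and it ran from 0.41 to 0.65 over 15 alternatives. With CM-KO pool 3 as the single CM-KO pool it was 0.41 (adjusted p = 0.55). DESeq2 gave 0.51 (adjusted p = 0.00133), and the authors' deposited table lists 0.52 with an adjusted p of 0.00224.

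The Eif4g2 ratio was -1.11, -1.08 and -0.94 in WT against -0.65, -0.34 and -0.48 in CM-KO on the log2 scale. All CM-KO pools were above all WT pools. This was the lowest p of the members for the ratio, with a change of 0.54 (SE 0.17, 95% confidence interval 0.19 to 0.89) and an adjusted p of 0.237. With the pool as a block it was 0.55 and passed (adjusted p = 0.0476), as it did in 3 of 14 alternatives, with adjusted p over all of them from 0.0364 to 1.00. The change was 0.51 (adjusted p = 0.942) with CM-KO pool 3 as the single CM-KO pool. The authors' deposited table lists an occupancy log2 fold change of 0.54 and an adjusted p of 0.0136. Only 0.298% of its coding windows were found elsewhere.

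Eif4g2 was also 1 of 2 members (4.17%, against 0.39% of all genes) whose annotated coding sequence begins with a codon other than ATG. In human and mouse, translation of this mRNA from GTG is established. The second was Eif4g3, where the coding sequence of the main transcript in this annotation also begins with GTG. The 2 contexts are shown because the start codon sets these members apart, with the start codon in capitals.
Eif4g2: tgtcaagccgccaaaGTGgagagtgcgatt
Eif4g3: tgctctgctcgttgaGTGaagaaaatccgt
The start codons begin at position 110680754 of chromosome 7, minus strand, and at 137720824 of chromosome 4, plus strand. Footprints of Eif4g3, a cap-linked eIF4G, were 125, 133 and 143 CPM in WT against 138, 158 and 135 in CM-KO. The difference in its ratio was 0.02 (SE 0.15, 95% confidence interval -0.30 to 0.34, adjusted p = 0.999). Eif4g1, the main scaffold, was at 559, 604 and 656 CPM in WT RNA and at 712, 690.4 and 658 in CM-KO, with no overlap and a narrow gap. Its RNA log2 fold change was 0.18 (SE 0.08, adjusted p = 0.293), and that of its footprints 0.08 (SE 0.08, adjusted p = 0.884).

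The eIF4A helicases unwind leaders for the scanning subunit. Eif4a1 footprints were 449, 383 and 434 CPM in WT and 539.5, 592 and 553 in CM-KO, without overlap. The log2 fold change was 0.41 (SE 0.08, adjusted p = 0.124), it ran from 0.35 to 0.46 over 15 alternatives, and with CM-KO pool 3 as the single CM-KO pool it was 0.39 (adjusted p = 0.287). DESeq2 gave 0.41 (adjusted p = 0.000512), and the authors' deposited table lists 0.41 with an adjusted p of 0.00139. Eif4a1 RNA was 124, 108 and 113 CPM in WT and 126, 139.6 and 123 in CM-KO, which overlapped (0.17, SE 0.08, adjusted p = 0.31, and 0.10 with CM-KO pool 3 as the single CM-KO pool). Its ratio was 2.30, 2.27 and 2.24 in WT against 2.44, 2.47 and 2.64 in CM-KO, all CM-KO pools above all WT pools, with a change of 0.25 (SE 0.14, adjusted p = 0.999). Of its coding windows 99.2% were found elsewhere in the genome, so its counts depend on how the authors placed shared reads.

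The paralog Eif4a2 was also higher in CM-KO footprints, at 195, 194 and 215 CPM in WT and 249, 268 and 229.9 in CM-KO, without overlap. Its log2 fold change was 0.30 (SE 0.08, adjusted p = 0.236), and 0.19 with CM-KO pool 3 as the single CM-KO pool. Eif4a3, whose protein sits in the exon junction complex and not in eIF4F, was at 136, 138 and 137 CPM in WT footprints and at 121, 152 and 139 in CM-KO. That change was 0.01 (SE 0.09, 95% confidence interval -0.19 to 0.21, adjusted p = 0.987). The difference between these paralogs was not tested. Eif4a3l2, a copy of Eif4a3 with 78.4% of its windows found elsewhere, gave 35 to 80 footprint counts per library.

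Eif4e, the cap-binding protein gene, had RNA at 90.5, 81.3 and 90.3 CPM in WT and 87.0, 69.0 and 75.5 in CM-KO, and footprints at 14.4, 15.9 and 13.1 against 16.6, 15.1 and 13.8. Both overlapped, and 85.9% of its windows were found elsewhere. For Eif4e2, which encodes a cap-binding protein that represses translation, footprints were 65.0, 69.4 and 62.8 CPM in WT and 69.3, 70.7 and 73.7 in CM-KO, a log2 change of 0.12 (SE 0.07, adjusted p = 0.718).

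Eif4ebp2 (chromosome 10, 61264032 to 61288567, minus strand) encodes a 4E-binding protein, which keeps eIF4E from eIF4G until mTOR phosphorylates it. It was the one member with footprints lower in every CM-KO pool, at 22.7, 23.8 and 24.5 CPM in WT against 15, 19.5 and 17.8 in CM-KO. The log2 fold change was -0.43 (SE 0.12, adjusted p = 0.234), and -0.41 with CM-KO pool 3 as the single CM-KO pool (adjusted p = 0.46). Its RNA was at 281, 299.7 and 303 CPM in WT and 283, 319.6 and 305 in CM-KO, with overlap (0.04, SE 0.07, adjusted p = 0.916). The ratio was -3.19, -3.21 and -3.32 in WT against -3.89, -3.64 and -3.61 in CM-KO, a change of -0.46 (SE 0.15, 95% confidence interval -0.77 to -0.14, adjusted p = 0.296). Over 14 alternatives it ran from -0.50 to -0.34 and passed in 0, with adjusted p from 0.0685 to 1.00. The change was -0.41 (adjusted p = 0.942) with CM-KO pool 3 as the single CM-KO pool. The authors' deposited table lists an occupancy log2 fold change of -0.46 and an adjusted p of 0.0341. Its leader was the richest of the members in G and C (79.1%), and none of its windows were found elsewhere.

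Footprints of Eif4ebp1, the gene of the related protein, were 42.6, 38.8 and 42.0 CPM in WT and 33.9, 41.6 and 45.8 in CM-KO, with overlap. The Eif4ebp1 ratio was -0.62, -0.59 and -0.55 in WT against -0.83, -0.75 and -0.66 in CM-KO. All CM-KO pools were lower, by a small step of -0.15 (SE 0.16, adjusted p = 0.999). Eif4b, which helps the eIF4A helicase, had a ratio of -0.24, -0.16 and -0.22 in WT against -0.14, 0.04 and -0.05 in CM-KO, a change of 0.15 (SE 0.13, adjusted p = 0.999).

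**Figure D3:**
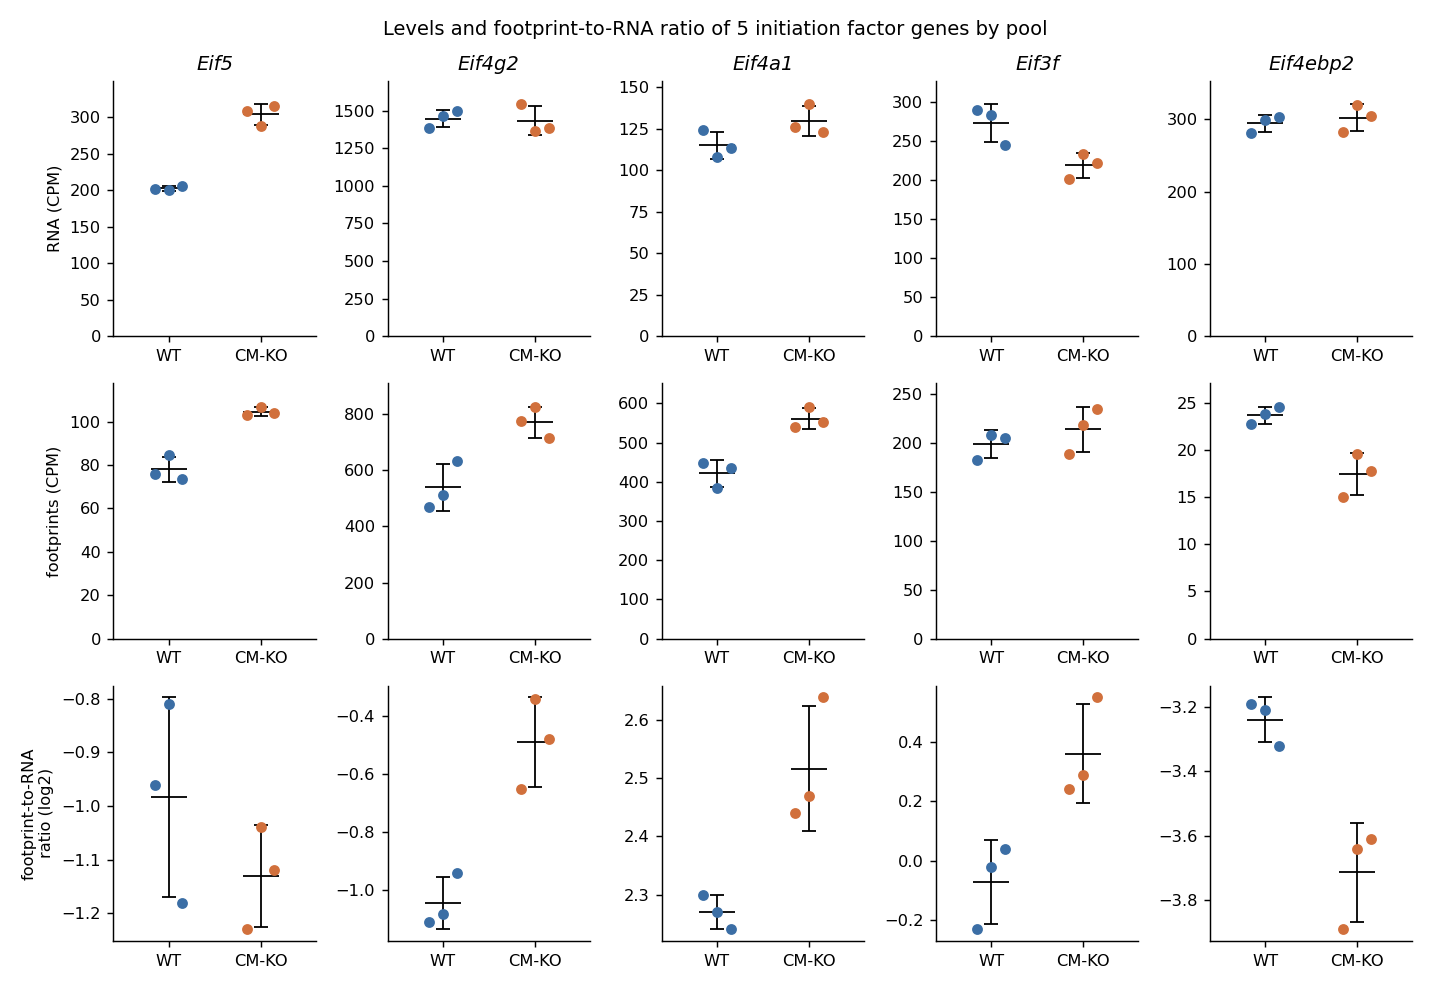
RNA and footprints in TMM-scaled CPM and the log2 footprint-to-RNA ratio of 5 genes, with 1 point per pool and the mean ± SD of 3 pools in black. Axes of the CPM panels start at 0, and those of the ratio panels do not. Eif5 is higher in CM-KO in both assays, Eif4g2 in footprints and ratio with overlapping RNA, and Eif4ebp2 is lower in footprints and ratio.

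The 3 genes of eIF2, which carries the initiator tRNA, were each above 0 in footprints and in the ratio. Medians were 0.27 and 0.37, and none passed. Coding windows found elsewhere in the genome made up 57.2% of Eif2s1, 84.4% of Eif2s2 and 95.1% of Eif2s3x. Their counts therefore depend on how the authors placed shared reads. Eif2s1, the gene of the α subunit that stress kinases phosphorylate, had RNA at 80.7, 77.2 and 77.3 CPM in WT and 83.2, 75.0 and 77.6 in CM-KO. Its footprints did not overlap, at 74.8, 80.2 and 78.6 CPM in WT and 89.5, 88.8 and 95.1 in CM-KO (0.23, SE 0.07, adjusted p = 0.315). Eif2s2, the β subunit gene, was at 42.9, 47.5 and 42.4 CPM in WT footprints and 46.1, 52.0 and 62.3 in CM-KO, which overlapped at the lower end (0.28, SE 0.11, adjusted p = 0.485). The X-linked Eif2s3x, gene of the tRNA-binding γ subunit, gave 65 to 183 footprint counts per library and 7.29, 8.84 and 10.5 CPM in WT against 8.63, 10.2 and 13.0 in CM-KO, with overlap.

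Eif2s3x shared 95.1% of its coding windows with other places in the genome. In CM-KO pool 1 its Y-linked partner Eif2s3y had 1.03 times as many footprint counts as Eif2s3x, and in CM-KO pool 2 it had 0.606 times. In RNA the same quotients were 0.145 and 0.0976. How the authors' counting shared reads between the 2 genes is not stated. RNA of Eif2s3x was 42.8, 37.8 and 40.8 CPM in WT against 37.7, 36.0 and 37.1 in CM-KO, all CM-KO pools lower, with a log2 change of -0.13 (SE 0.07, adjusted p = 0.439).

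In the 5 genes of eIF2B, the exchange factor of eIF2, the log2 fold changes ran from -0.13 to 0.06 in RNA, from 0.02 to 0.13 in footprints and from -0.02 to 0.21 in the ratio. None of their 30-base coding windows were found elsewhere in the genome. Footprints of Eif2b5, the gene of the catalytic subunit, were 107, 102 and 104 CPM in WT and 105, 117 and 122 in CM-KO. Eif2b1, a gene of the regulatory core, stood at 69.2, 73.3 and 72.9 CPM in WT and 70.6, 75.3 and 79.8 in CM-KO. Both overlapped between the genotypes. Footprints of Eif2b3 did not, at 60.7, 59.6 and 59.4 CPM in WT and 63.9, 63.5 and 69.1 in CM-KO (0.13, SE 0.07, adjusted p = 0.665). In RNA, all CM-KO pools were above all WT pools for Eif2b5 and below them for Eif2b2. The 95% confidence interval of the footprint change had a median half-width of 0.169 log2 units over these 5 genes.

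The eIF3 complex is the large scaffold on the small subunit. RNA of its genes was split, with 5 of 14 above 0, and the footprints were above 0 for 13 of 14, with a median of 0.10 and a range of -0.05 to 0.22. Eif3a, which encodes the largest core subunit, had footprints of 643, 694 and 634 CPM in WT and 746, 764 and 729 in CM-KO, without overlap (0.18, SE 0.08, adjusted p = 0.496). Eif3h, which encodes an MPN-domain subunit, was at 113, 118 and 103 CPM in WT and 122, 120.4 and 123 in CM-KO, just apart (0.13, SE 0.07, adjusted p = 0.674). Eif3i was the one eIF3 gene below 0, at 201, 204 and 201 CPM in WT and 178, 203 and 202 in CM-KO (-0.05, SE 0.07).

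Eif3f (chromosome 7, 108533574 to 108543245, plus strand), gene of another subunit with an MPN domain, had the second lowest p of the members in RNA. RNA of Eif3f was 290.2, 284 and 245 CPM in WT against 202, 234 and 222 in CM-KO. All CM-KO pools were lower, and WT pool 3 was the WT pool nearest to them. The log2 fold change was -0.32 (SE 0.09, adjusted p = 0.0703), and it passed in 2 of 15 alternatives, with DESeq2 (adjusted p = 0.00243) and without WT pool 3 (-0.38, adjusted p = 0.0225). With CM-KO pool 3 as the single CM-KO pool it was -0.30 (adjusted p = 0.439). The authors' deposited table lists -0.32 with an adjusted p of 0.00306. Its footprints overlapped, at 182, 208 and 205 CPM in WT against 188, 218 and 234 in CM-KO. The ratio was higher in every CM-KO pool, at 0.24, 0.29 and 0.55 against -0.23, -0.02 and 0.04 in WT (0.43, SE 0.14, adjusted p = 0.269). The ratio change was 0.58 (adjusted p = 0.942) with CM-KO pool 3 as the single CM-KO pool.

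The 2 genes of the loosely bound j subunit differed from the rest of eIF3 in level. Eif3j1 had 408 to 657 RNA counts and only 11 to 29 footprint counts per library, and Eif3j2 had 86 to 154 RNA counts and 126 to 264 footprint counts. Windows found elsewhere made up 99.7% of Eif3j1 and 74.7% of Eif3j2. RNA of Eif3j2 was 5.81, 6.40 and 6.05 CPM in WT against 7.37, 7.43 and 9.01 in CM-KO, all CM-KO pools higher (0.38, SE 0.15, adjusted p = 0.223). For Eif3j1 RNA the values were 33.6, 28.9 and 32.9 CPM in WT and 31.3, 27.1 and 29.1 in CM-KO, with overlap.

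Late steps and the other factors held 2 further members with separate footprint groups. Eif5b, the gene of the subunit-joining GTPase, was at 199, 220.3 and 209 CPM in WT footprints and at 242, 237 and 242 in CM-KO (0.20, SE 0.07, adjusted p = 0.405). Its RNA, 70.5, 63.3 and 70.1 CPM in WT and 73.4, 64.4 and 68.5 in CM-KO, overlapped. Eif5a, gene of the hypusine-bearing elongation factor that kept its initiation name, was at 269.6, 273 and 278 CPM in WT footprints and 279, 317 and 318 in CM-KO, where CM-KO pool 1 lay next to the WT pools. RNA of its paralog Eif5a2 was 37.7, 36.9 and 37.7 CPM in WT and 39.1, 38.7 and 40.1 in CM-KO, a small step of 0.07 (SE 0.06, adjusted p = 0.723). Eif2a, which encodes a tRNA-binding factor unrelated to eIF2α, had the third lowest p in RNA, at 74.9, 68.1 and 72.1 CPM in WT against 66.8, 54.8 and 63.3 in CM-KO. All CM-KO pools were lower (-0.22, SE 0.08, adjusted p = 0.204). The change was -0.14 without CM-KO pool 2 and -0.18 with CM-KO pool 3 as the single CM-KO pool. Eif2d, gene of another tRNA-delivering factor, was below 0 in all 3 measures, with footprints of 26.4, 31.3 and 28.0 CPM in WT and 26.0, 26.4 and 27.4 in CM-KO (-0.09, SE 0.09).

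Levels were compared between genes per length, with RNA per kb of the main transcript and footprints per kb of its coding sequence. In WT RNA the range over eIF2B was 10.2 (Eif2b3) to 27.8 CPM per kb (Eif2b5), 2.73-fold, and in footprints 34.7 (Eif2b4) to 78.5 (Eif2b1), 2.26-fold. Across the 12 eIF3 genes other than the j genes, RNA ran from 43.7 (Eif3c) to 130.4 (Eif3k), 2.98-fold, and footprints from 77.5 ± 2.66 (Eif3m) to 388 ± 4.82 CPM per kb (Eif3k, SD, n = 3), 5.01-fold. At the low ends, Eif3a RNA (44.6 ± 1.13) was within the spread of Eif3c (43.7 ± 1.54). Eif3e footprints (85.4 ± 6.2) had a mean above the spread of Eif3m, though their ranges of mean ± SD overlapped. The quotients in CM-KO were 2.78 and 2.35 for eIF2B and 2.61 and 5.01 for eIF3. The j genes were far below, with Eif3j2 at 2.56 CPM per kb in RNA and Eif3j1 at 2.42 in footprints. In eIF2, RNA spanned 2.32-fold and footprints 13.1-fold, the latter set by Eif2s3x at 6.27 ± 1.14 against 82.4 ± 2.97 for Eif2s1. Among eIF4 genes Eif4g2 led in RNA (181 CPM per kb) and Eif4h, whose protein helps eIF4A, in footprints (507), with Eif4a3l2 lowest in both (3.85 and 4.17). Of the other factors Eif5a led both (228 and 592 CPM per kb). Eif5a2 was lowest in RNA (7.35). In footprints Eif2d (16.7 ± 1.47) and Eif5a2 (17.1 ± 3.02) were lowest and did not differ beyond their spread.

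**Figure D4:**
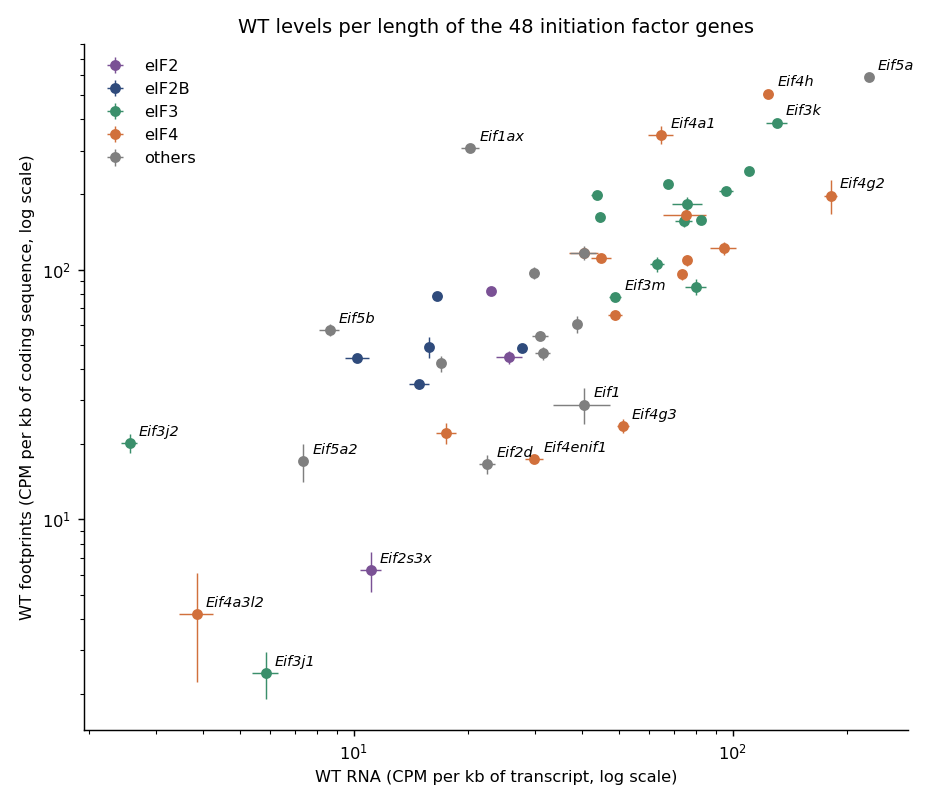
WT RNA (CPM per kb of transcript) against WT footprints (CPM per kb of coding sequence) of the 48 genes on log axes, as mean ± SD of 3 pools, coloured by complex. Most eIF3 genes (green) lie together at the upper right, while Eif3j1 and Eif2s3x lie low, at 2.42 and 6.27 CPM per kb in footprints. Eif1ax and Eif5b have many footprints per kb for their RNA per kb, which rests on the annotated lengths.

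Footprint density over RNA, the log2 quotient of these per-length values within a pool, ran from -1.11 to 3.91 over the members and from -7.38 to 6.42 over all genes. The median of the members was 1.12 and that of 13892 genes 0.76, and 30 of 48 members were above the latter. All 5 eIF2B genes lay above it, but 5 of 14 eIF4 genes did. The order depends on the annotated lengths, and the counted region is not given. Eif1ax was highest, at 3.93, 4.03 and 3.78 in WT pools 1, 2 and 3, above 99.4% of all genes. Its transcript has 5178 bases and its coding sequence 432. Not per length, its WT log2 ratio was 0.72 ± 0.20, below that of Eif4a1 at 2.27 ± 0.03 (SD, n = 3). In density Eif3j2 followed Eif1ax at 2.91 ± 0.11 and Eif5b at 2.73 ± 0.16 (SD, n = 3), which did not differ beyond their spread. Eif4a1 came next at 2.42 ± 0.06. The lowest was Eif4g3 at -1.11 ± 0.07, followed by Eif3j1 at -0.97 ± 0.14, with Eif4enif1, gene of an eIF4E transporter, and Eif2s3x both at -0.77 (SD 0.13 and 0.30). These last neighbours overlapped in their spread. Across the 48 genes Spearman's rho of this density with the share of windows found elsewhere was -0.21, a description over genes that share the same libraries. The 6 members with 80% or more such windows ranged from -0.97 to 2.42 in this density. Their median footprint change was 0.27 and their median ratio change 0.35, with all 6 above 0 in both, while in RNA 1 of 6 was above 0, with a median of -0.10. The 25 members with under 5% had a median footprint change of 0.10 with 22 above 0, and a median ratio change of 0.13 with 19 above 0. Across the 48 genes Spearman's rho of the ratio change with the share of such windows was 0.27, and the part of shared reads in these changes was not tested.

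Annotated leaders of the members were searched for a start like that of terminal oligopyrimidine mRNAs, whose translation follows mTOR through LARP1. The search was for an unbroken run of at least 8 C or T bases beginning within the first 10 bases, on the transcript strand only. Such a run was found in 7 of 48 members (14.6%) and in 5.78% of 14633 genes. The 7 were Eif1ad, Eif2s3x, Eif3c, Eif3f, Eif3g, Eif3k and Eif4a3, among them 4 eIF3 genes. The first 24 bases of 4 are shown, from the longest runs and the one X-linked gene, with the run in capitals.
Eif3c: ccccaaCCTTTTCCTCTTCCggcg
Eif3f: TCTCTCTTTCTCggcaagatggct
Eif3k: CTTTCCCTTTgccttccttgtagg
Eif2s3x: TTCCCCTTCgctccgcccaagggg
These transcripts start at position 126165587 of chromosome 7 (minus strand), 108533621 of chromosome 7 (plus), 28681299 of chromosome 7 (minus) and 93256315 of chromosome X (minus). In Eif3f the leader is 18 bases long, so the start codon lies within the bases shown. RNA was below 0 in 6 of the 7, with a median of -0.12, and above 0 in footprints and in the ratio were all 7, with medians of 0.11 and 0.21. Of the other 41 members, 17 were below 0 in RNA (median 0.02), 36 were above 0 in footprints (median 0.13) and 31 in the ratio (median 0.13). This split was made after the members' values were seen. Over all genes with such a run the medians were 0.02 in RNA and 0.00 in the ratio. A run is a description of the annotated start, which need not be the start used in heart.

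Members had short leaders, with a median of 191.5 bases against 241 for all genes. At least 1 upstream ATG was found in 21 members (43.8%) and in 61.8% of all genes. The G and C share of the leader was alike, with medians of 64.2 and 64.4%. Spearman's rho between this share and the change in ratio was -0.34 over the 48 members and -0.24 over 13706 genes, given as a description, since all genes share the same libraries.

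Cofactors and regulators of initiation were read as a list of 34 genes, of which 33 were tested. In RNA 2 rose and 0 fell, against 4.37% of all genes called, with a list median of 0.02. Paip1, gene of a poly(A)-binding protein partner that stimulates translation, was at 101, 104 and 102 CPM in WT and 125, 127 and 128 in CM-KO, a log2 change of 0.30 (SE 0.06, adjusted p = 0.019). Larp1, whose protein holds oligopyrimidine mRNAs, went from 261, 269.7 and 297 CPM to 350.5, 344 and 355 (0.34, SE 0.07, adjusted p = 0.0239). Neither overlapped between the genotypes. Each passed in 6 of 15 alternatives, with a change of 0.26 to 0.32 for Paip1 (adjusted p from 0.000983 to 0.198) and of 0.30 to 0.41 for Larp1 (adjusted p from 0.00019 to 0.276). Their changes were 0.32 (adjusted p = 0.179) and 0.36 (adjusted p = 0.238) with CM-KO pool 3 as the single CM-KO pool. In footprints and in the ratio 0 of 33 passed, with medians of 0.04 and 0.08. The difference in the ratio of Paip1 was -0.44 (SE 0.12, adjusted p = 0.142). It passed in 2 of 14 alternatives, upper quartile scaling and minimum count 50, with adjusted p from 0.0101 to 1.00. Ddx3x itself, on the list as a helicase of initiation, was at 294, 304 and 311 CPM in WT RNA and at 281, 216 and 221 in CM-KO (-0.34, SE 0.10, adjusted p = 0.0883), with every CM-KO pool lower, and with CM-KO pool 3 as the single CM-KO pool the change was -0.45 (adjusted p = 0.0996). Over 15 alternatives it ran from -0.48 to -0.27 and passed in 4, with adjusted p from 0.00602 to 0.328. Ddx3x footprints were 617, 673 and 609 CPM in WT and 559, 533 and 492 in CM-KO, without overlap (-0.26, SE 0.08, adjusted p = 0.35).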

How the data were processed

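RNA-seq and ribosome footprint (RPF) libraries of 3 WT and 3 Ddx3x CM-KO heart pools were analysed from 1 deposited table. Per the labels and the series' design text, RNase I gave the footprints, ribosomal RNA was depleted in both assays, and reads were handled on mm39 by the proprietary pipeline and counter of a service provider. Not given in the sources used here are the aligner, annotation release, strand setting and counted region. Molecular identifiers are not mentioned there, so reads were taken as independent. The deposited read counts are raw and were used for all tests. The authors' RPM columns and their occupancy ratio were read only as a check: 87.0% of the ratio values lay within 5% of the quotient of the RPM values where both exceeded 5. The authors also deposited log2 fold changes with adjusted p-values. DESeq2 made those of RNA, per the series' design text, and of footprints, per the file headers, while no source used here names the occupancy test. A gene was blank in a pool unless 1 of its counts was at least 11.

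Each assay was tested 3 against 3 with the quasi-likelihood test of edgeR 4.0.16 in R 4.3.3 (TMM scaling, robust estimation, filterByExpr with minimum count 10 and total 15). The ratio was tested over the 12 libraries through a genotype-by-assay interaction. P-values were adjusted over all genes by Benjamini-Hochberg, with a threshold of 0.05. Levels are TMM-scaled CPM within an assay. Log2 ratios use TMM over the 12 libraries together and a prior count of 1, so they are offset from the CPM, and they are not per length. The smallest exact permutation p of 3 against 3 pools is 0.1 for a single gene. Each pool holds its own hearts. The fits were tested on simulated data with changes larger than that of any member. The simulation used the same dispersion for every gene and drew the 2 libraries of a pool independently. It therefore does not show how well changes as small as those of the members are found. DESeq2 1.42.0 and the other alternatives are in the closing section.

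Both libraries of a pool share their hearts (series' design text). Deviations from the group means correlated between them by 0.156 to 0.57, over 8083 genes with at least 100 counts. Results blocked by pool are given where a call or a count changes.

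Main transcripts (Ensembl canonical), lengths, leaders and sequences came from GENCODE vM39 on GRCm39, which is mm39, for 48 of 48 members. Coding windows of 30 bases were looked up in the whole genome. Cofactors and markers were lists set for this report. The members and lists were chosen with earlier results of these data known. Genes named were those that passed a test, the 3 lowest p in each comparison, the highest and lowest level per length in each complex, the 3 highest and lowest WT footprint densities over RNA, and paralog sets, with further genes named after their values were seen. The density order was taken per length, and genes named only for a level or density are given as means.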

Additional observations from a re-analysis of the deposited data

How the results depend on the processing

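Across the alternatives, the RNA call of Eif5 and the positive footprint median of the members held (0.09 to 0.17, with 40 to 46 members above 0), and the ratio median ran from 0.07 to 0.29 (32 to 43 above 0), where 0.29 is without CM-KO pool 1. The RNA median was -0.04 with upper quartile scaling and -0.04 to 0.02 without single pools. Members called in RNA numbered 2 with DESeq2, and 1 to 2 without single pools. Members called in footprints numbered 1 with upper quartile scaling, 1 at minimum count 50, 3 with DESeq2 and 1 with all 12 libraries in one model. Members called for the ratio numbered 1 with upper quartile scaling and 1 at minimum count 50. The count over all genes moved more. In RNA, 750 became 250 with all 12 libraries in one model, 286 with the level of Afp, a liver and yolk sac gene, as a covariate, 126 with CM-KO pool 3 as the single CM-KO pool, and 207 to 783 without single pools. In footprints, 35 became 60 with upper quartile scaling, 54 at minimum count 50, 184 with DESeq2, 80 with all 12 libraries, 54 with CM-KO pool 3 alone, 5 with Afp, and 1 to 94 without single pools. For the ratio, 128 became 41 with DESeq2 size factors, 248 with upper quartile scaling, 283 at minimum count 50, 5 with CM-KO pool 3 alone, 39 with Afp, and 9 to 113 without single pools. By pool left out, counts that moved over 1.5 times were, in RNA, 207 (WT 2), 287 (CM-KO 2) and 367 (CM-KO 3); in footprints, 1 (WT 2), 5 (WT 3), 94 (CM-KO 1) and 4 (CM-KO 3); and for the ratio, 58 (WT 1), 13 (WT 2), 72 (CM-KO 1), 43 (CM-KO 2) and 9 (CM-KO 3). The causes were not tested. A lone CM-KO pool is assumed to vary like the WT pools. Same-numbered pools of the 2 genotypes hold different hearts. Their deviations correlated by -0.293 to 0.276 in RNA and by 0.097 to 0.301 in footprints, against 0.156 to 0.57 between the 2 libraries of a pool. Whether a number also marks a shared preparation was not tested. With the replicate number as a block, 367 genes passed in RNA and 203 in footprints, 3 of them members (Eif4a1, Eif4g2 and Eif5). With the pool as a block, 226 genes passed for the ratio, 1 of them a member, and it changed no other member's call. RNA changes near 0 switched sign: Eif4ebp2 (0.04) was -0.0047 with upper quartile scaling and -0.0035 without CM-KO pool 2. Eif1 (-0.07) was 0.06 without WT pool 1, 0.04 when CM-KO pool 1 was left out and 0.07 with CM-KO pool 3 alone, and ran from -0.18 to 0.06 without single pools. Eif4g2 (-0.02) was 0.02 without WT pool 3, 0.02 without CM-KO pool 2, 0.0064 without CM-KO pool 3 and 0.01 with Afp, and ran from -0.08 to 0.02 without single pools. By single WT pool, highest over lowest level per length was 2.26 to 2.38 (RNA) and 11.2 to 15.4 (footprints) in eIF2, 2.59 to 2.95 and 2.22 to 2.31 in eIF2B, 46.4 to 57.3 and 131 to 205 in eIF3, and 2.92 to 3.15 and 4.87 to 5.19 in eIF3 without the j genes. With the longest coding sequence it was 10.9 in eIF2 footprints, 2.44 in eIF2B and 5.22 in eIF3 without the j genes. Eif3j1 had only 11 to 29 footprint counts per library, and its footprint change had a 95% confidence interval of -0.51 to 0.95. Of its coding windows 99.7% were found elsewhere, and the cause of its low counts was not tested.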
